A study of Homo sapiens with 4 samples.

Results

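Accessible regions at 10 genes of the Hippo pathway and its transcriptional output were examined in MCF10A, an established, non-tumorigenic line of human mammary epithelial cells. The genes were YAP1, WWTR1, TEAD1, TEAD4, LATS1, LATS2, CTGF, CYR61, AMOTL2 and ANKRD1. Every region whose nearest transcription start site (TSS) was assigned to one of these symbols was taken, near or far, which gave 57 of the 58127 regions in the authors' deposited table. Regions were measured by ATAC-seq, in which a transposase cuts open DNA and the inserted fragments are sequenced. One group of 2 libraries carried a control hairpin (shNC) and the other group of 2 a hairpin (shG8d) that targets SNHG8d, which is transcribed from the long noncoding RNA gene SNHG8. Libraries of a group are lettered A and B. Whether A and B were grown apart is not stated, and the spread on which p-values rest may therefore be technical.

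The Hippo pathway is a kinase cascade that restrains tissue growth. Its last kinases, LATS1 and LATS2, phosphorylate the coactivators YAP (YAP1) and TAZ (WWTR1) and keep them out of the nucleus. When free, YAP and TAZ bind the TEAD transcription factors and switch on genes such as CTGF, CYR61, ANKRD1 and AMOTL2, and in epithelial cells the cascade responds to cell density, cell junctions and stiffness. LATS2 and AMOTL2 are themselves targets of YAP and act back on it as inhibitors.

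The group labels of the table contradict each other, so libraries are named here by depth. The size of 1 read in the scaled values identifies each library, and the pair with 8124488 and 8111839 reads in regions is called the deeper pair, the pair with 4457248 and 4344212 reads the shallower pair; their libraries are deeper A and B and shallower A and B. In the common regions, which the authors list for both groups, the deeper pair stands under the label shG8d. In the regions that they list as specific to shNC or to shG8d, it stands under shNC. The 57 regions comprised 32 common, 22 shNC-specific and 3 shG8d-specific ones. Some counts and medians below pool these sets. A pooled value compares the deeper with the shallower pair and cannot be read by label, because the labels are exchanged between the sets. No direction is assigned to the knockdown, and depth and hairpin cannot be told apart because they go together. All values are normalized counts, that is reads per region after the authors' scaling. Widths of regions were not used here, so levels of different regions are not compared. Each of the 57 regions passed the filter of 10 normalized counts in at least 2 libraries, with between 6 and 292 reads per library.

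Sequence just upstream of the start site is shown for 5 of the genes, because 4 of them hold the TEAD motif there and the region at the start of the fifth, LATS2, was the promoter-proximal one that passed the test. The letters are RefSeq sequence of the build GRCh38.p14, matched by gene symbol, whereas the regions were called on hg19. The RefSeq table held 10 promoters of 7 of the 10 genes, and TEAD1, TEAD4 and CYR61 were not among them. Each line holds the 250 bases before the start, 5′ to 3′. Capitals mark the core TEAD motif, CATTCC or its complement GGAATG, and the pattern TGANTCA, which covers the AP-1 site and was searched on both strands. AMOTL2 has 2 starts in the table, and the second is shown because the first holds neither motif.
CTGF, chr6:131951373-131951622, minus strand: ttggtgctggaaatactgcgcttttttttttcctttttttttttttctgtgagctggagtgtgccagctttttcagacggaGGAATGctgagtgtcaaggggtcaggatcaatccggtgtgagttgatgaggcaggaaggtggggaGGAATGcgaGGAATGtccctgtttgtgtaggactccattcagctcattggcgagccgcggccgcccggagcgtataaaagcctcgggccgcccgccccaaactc
ANKRD1, chr10:90921088-90921337, minus strand: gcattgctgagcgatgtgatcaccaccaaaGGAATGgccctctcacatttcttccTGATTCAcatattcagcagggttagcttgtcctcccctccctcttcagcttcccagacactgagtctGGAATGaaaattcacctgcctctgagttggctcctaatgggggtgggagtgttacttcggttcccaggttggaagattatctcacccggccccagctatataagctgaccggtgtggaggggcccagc
AMOTL2, chr3:134374448-134374697, minus strand: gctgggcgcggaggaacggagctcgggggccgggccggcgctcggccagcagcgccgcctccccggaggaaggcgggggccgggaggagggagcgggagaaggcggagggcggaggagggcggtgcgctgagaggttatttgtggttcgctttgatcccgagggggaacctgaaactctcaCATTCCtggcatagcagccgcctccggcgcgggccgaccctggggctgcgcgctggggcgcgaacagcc
YAP1, chr11:102110197-102110446, plus strand: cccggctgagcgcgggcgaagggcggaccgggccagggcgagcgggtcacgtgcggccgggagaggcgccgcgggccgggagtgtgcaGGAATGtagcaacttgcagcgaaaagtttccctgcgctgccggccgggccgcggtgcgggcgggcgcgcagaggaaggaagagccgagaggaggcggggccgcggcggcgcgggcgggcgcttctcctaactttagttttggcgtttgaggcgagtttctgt
LATS2, chr13:21061587-21061836, minus strand: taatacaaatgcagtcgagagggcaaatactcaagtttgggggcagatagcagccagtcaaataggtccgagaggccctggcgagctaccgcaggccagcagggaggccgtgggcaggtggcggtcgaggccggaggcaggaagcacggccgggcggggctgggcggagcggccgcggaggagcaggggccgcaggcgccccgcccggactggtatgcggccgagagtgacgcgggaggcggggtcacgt

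In the CTGF promoter the TEAD motif occurred 3 times, beginning 169, 104 and 95 bases upstream of the start. ANKRD1 had it at 220 and 128 bases, with 1 match to TGANTCA between them at 195 bases. AMOTL2 had 1 at 69 bases and YAP1 had 1 at 162 bases. Of the 35116 promoters in the RefSeq table, 11.9% held at least 1 TEAD motif in the same window, 0.940% held at least 2 and 0.0826% held at least 3. The pattern TGANTCA was present in 6.57% of them. The LATS2 window held neither motif, nor did either WWTR1 window. One of the LATS1 windows held 1 match to TGANTCA. Neither match to this pattern, at ANKRD1 or LATS1, has the C or G in the middle that the usual AP-1 site has. Whether the hg19 start behind each region's distance is the same start was not checked. A match describes letters and does not show that a factor binds there.

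Regions of the pathway differed between the library pairs about as often as all listed regions did. Of the 57 regions, 13 (22.8%) passed limma's moderated test at an adjusted p under 0.05, against 23.6% of all 58127 regions. They comprised 6 that were higher and 7 that were lower in the deeper pair (11.1% and 12.4% of all regions). The 13 lay at 8 genes, and the regions of LATS1 and TEAD4 did not pass. TEAD1 alone held 20 of the 57 regions, with 1 higher and 2 lower, and so weighs most in these shares. In the common regions 10 of 32 passed, 31.2% against 25.7% of all common regions, with 4 higher and 6 lower (10.7% and 15.0% of all common regions). In the shNC-specific set 2 of 22 passed, both higher, against 14.2% of that set called in either direction, 13.2% higher and 0.979% lower. In the shG8d-specific set 1 of 3 passed, being lower, where 70.0% of the set was called lower and 0.0363% higher. Both specific sets together had 3 of 25 called, against 20.6% (11.7% higher and 8.83% lower). The values of the pairs did not overlap in 35 of 57 regions, against 63.4% of all regions. In common regions this was 24 of 32 against 67.1%, and in specific ones 11 of 25 against 58.1%. The 12 regions of these genes at promoters or within 1 kb of a TSS included 1 that passed, being higher, against 30.9% of 13020 such regions in the table (19.4% higher and 11.5% lower). The other 45 regions included 12 that passed, 5 higher and 7 lower, against 21.5% of the table's distal regions (8.76% higher and 12.7% lower). Whether the members' shares differ from those of the table was not tested.

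The number of calls depended on single libraries. Without deeper A or without deeper B fewer of the 57 regions passed, and without shallower A more did, as over all regions. Such fits take the spread from the complete pair. The number of calls also depended on the scaling. Library totals here are the reads within the listed regions, since all reads of a library were not available. With equal library totals in place of the authors' scaling, 3 were higher and 19 were lower, beside 4.44% and 28.1% of all regions, and the median difference of all regions moved by −0.35 on the log2 scale. Of the 32 common regions 16 then passed, against 40.6% of all common regions. With equal totals, a scaling that moved differences downward, all 7 of the lower regions still passed. Among those that passed were the 4 regions with the lowest adjusted p. With each library left out, the YAP1 region 26579 bp downstream of its TSS lay between −1.83 and −1.59 on the log2 scale. The TEAD1 region at 49951 bp lay between −1.36 and −1.09, and the CYR61 region at 31334 bp between 1.13 and 1.48. The LATS2 region at 176 bp, which is shNC-specific, lay between 1.32 and 1.65. How often other regions keep their difference in this way is not given here.

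**Figure D1:**
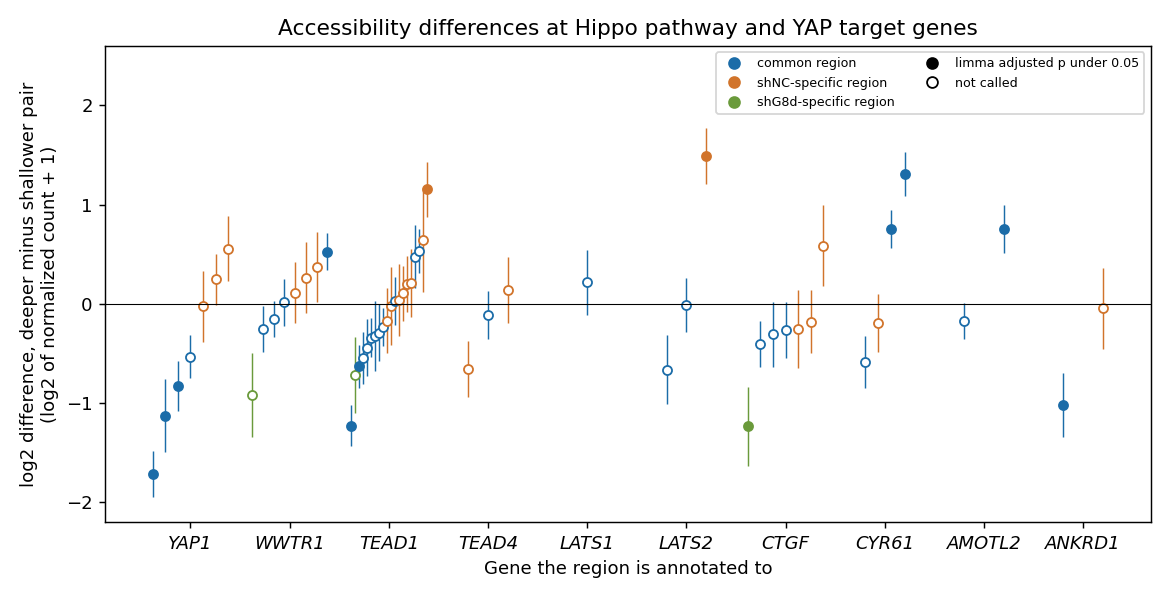
Log2 difference (deeper minus shallower pair, of normalized count + 1) of each of the 57 regions, grouped by gene. Points are limma estimates, bars are standard errors, colours give the region set and filled points are the 13 with an adjusted p under 0.05. The common regions of YAP1 all lie below 0, and both distal regions of CYR61 lie above it.

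YAP1 encodes the coactivator YAP and lies on chromosome 11. Its common regions held the lowest estimate among all 57. The region in intron 2 of 8, 26579 bp downstream of the TSS, had 42.9 and 45.2 normalized counts in deeper A and B, and 159 and 135 in shallower A and B. Both deeper libraries, labelled shG8d in this common region, stood far below both others. The means were 44.1 ± 1.6 and 147 ± 17.5 (SD, n = 2 each), a 3.34-fold lower level, for an estimate of −1.71 on the log2 scale (SE 0.229, limma adjusted p = 7.04e-05). In the fits that left out 1 library, this YAP1 difference lay between −1.83 and −1.59. With equal library totals it was −2.06. In bulk libraries, a region open in fewer cells and one less open in each cell cannot be told apart.

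A further 2 distal regions of YAP1 were lower in the deeper pair. The region 65900 bp downstream, in intron 3 of 6, had 53.9 and 77.5 normalized counts in deeper A and B, against 93.0 and 143 in shallower A and B. The pairs did not overlap, but each spread widely. The log2 difference was −0.83 (SE 0.255, limma adjusted p = 0.0247), which was lost without deeper A (−0.57, adjusted p = 0.282) and without shallower B (−0.52, adjusted p = 0.143). The region 30676 bp upstream lies in an intron of CFAP300, a gene of ciliary assembly, and is assigned to YAP1 as the nearest TSS. It had 15.1 and 21.0 normalized counts in the deeper pair, from 18 and 26 reads, and 36.2 and 44.5 in the shallower pair. The deeper libraries were again the lower ones, for an estimate of −1.13 on the log2 scale (SE 0.367, limma adjusted p = 0.0322). It did not pass without deeper A (adjusted p = 0.254) or B (0.0807) and without shallower B (0.0838).

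The YAP1 promoter was represented by 2 regions that did not pass. The common one, 451 bp upstream of a TSS, had 76.6 and 71.8 normalized counts in deeper A and B, against 111 and 104 in shallower A and B. All deeper values lay below all shallower ones, for an estimate of −0.53 on the log2 scale (SE 0.218, limma adjusted p = 0.0832), and with equal library totals it passed at −0.88 (adjusted p = 0.00519). The other, 210 bp upstream of a different YAP1 TSS and shNC-specific, had 65.6 and 76.7 against 68.9 and 51.6. These overlapped (log2 difference 0.25, SE 0.257, limma adjusted p = 0.516). Another 2 shNC-specific regions in YAP1 introns had log2 differences of 0.56 and −0.02 (limma adjusted p of 0.225 and 0.969). All 4 common regions of YAP1 had estimates below 0, against 58.1% of all common regions.

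WWTR1, on chromosome 3, encodes TAZ, the partner and paralogue of YAP. It had 8 regions and 1 of them passed, with a difference near the threshold. That common region in intron 5 of 9, 81706 bp downstream, had 194 and 199 normalized counts in deeper A and B, and 153 and 121 in shallower A and B. The deeper libraries, labelled shG8d there, were both above the others, for an estimate of 0.53 on the log2 scale (SE 0.189, limma adjusted p = 0.0496). The call was lost with a pseudocount of 0.5 (adjusted p = 0.0501), with equal library totals (0.17, adjusted p = 0.519), and without deeper A (adjusted p = 0.244), deeper B (0.267) or shallower B (0.35, adjusted p = 0.148). The WWTR1 promoter region, 50 bp upstream of the TSS and common, had 143 and 145 normalized counts in deeper A and B, against 156 and 165 in shallower A and B. The pairs were close but did not overlap, and the estimate of −0.15 (SE 0.185) missed the threshold (limma adjusted p = 0.582). The remaining 6 regions lay between 9281 and 77717 bp downstream within the gene. Among them was the shG8d-specific one at 39241 bp, with 16.0 and 27.4 normalized counts in deeper A and B, against 25.4 and 64.4 in shallower A and B. Its log2 difference of −0.92 (SE 0.421) did not pass (limma adjusted p = 0.120), and the values overlapped.

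TEAD1, on chromosome 11, encodes a TEAD factor that recruits YAP and TAZ to DNA. It had 20 regions, more than 99.8% of the 19485 genes with a region, and the median over all genes was 2. In the deeper pair 2 of the 20 were lower and 1 was higher. The common region in intron 2 of 12, 49951 bp downstream, had 68.2 and 82.3 normalized counts in deeper A and B, and 178 and 176 in shallower A and B. Both shallower values were far above the deeper ones, and the mean level was 2.35-fold lower in the deeper pair, for an estimate of −1.23 on the log2 scale (SE 0.204, limma adjusted p = 0.000488), which lay between −1.36 and −1.09 with each library left out.

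The other lower region of TEAD1 was a common intergenic one 130474 bp upstream, with 69.9 and 73.4 normalized counts in deeper A and B, against 116 and 107 in shallower A and B. The pairs were well apart, and the log2 difference was −0.63 (SE 0.218, limma adjusted p = 0.0433). It was lost without deeper A (adjusted p = 0.251) or B (0.172) and without shallower A (0.0662). The higher region of TEAD1 was shNC-specific and lay in intron 2 of 12, 22680 bp downstream. It had 74.1 and 74.2 normalized counts in the deeper pair, labelled shNC there, and 32.6 and 32.8 in the shallower pair. Replicates were nearly equal and the pairs far apart, for an estimate of 1.16 on the log2 scale (SE 0.277, limma adjusted p = 0.00627). This p-value may not be independent of how the shNC-specific set was chosen. The estimate without deeper A was also 1.16 (adjusted p = 0.0701), and without deeper B it was 1.15 (adjusted p = 0.0614). By label, the columns called shG8d were the lower ones at the 2 common regions, where that label stands for the deeper libraries. Over all 10 genes, 4 common regions that passed were higher under that label and 6 were lower. At the shNC-specific region the shG8d columns, there the shallower libraries, were lower too. Of that whole set 13.2% passed with this order and 0.979% with the reverse, so the order there was that of the set.

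The TEAD1 promoter region, 144 bp upstream and common, had 59.8 and 62.9 normalized counts in deeper A and B, against 62.8 and 30.5 in shallower A and B. A single library, the shallower B, stood apart at 26 reads. The estimate of 0.48 (SE 0.317) missed the threshold (limma adjusted p = 0.291), passed without shallower A (0.99, adjusted p = 0.0112) and was −0.03 without shallower B. The TEAD1 region at 128500 bp, a common one in intron 3 of 12, had 131 and 116 normalized counts in deeper A and B, against 140.1 and 150.0 in shallower A and B. The deeper values were slightly lower, and the estimate of −0.23 did not pass (SE 0.193, limma adjusted p = 0.415) except with equal library totals (−0.58, adjusted p = 0.0311). The 17 regions of TEAD1 that did not pass had log2 differences between −0.72 and 0.64. TEAD4, on chromosome 12, encodes another TEAD factor, and its 3 regions lay within 1141 bp of a TSS. Its common promoter region, 534 bp from a TSS, had 64.8 and 72.6 against 66.4 and 83.2 normalized counts, which overlapped. At its shNC-specific promoter region, 41 bp upstream, the values were 45.4 and 67.0 against 73.7 and 34.0. The log2 differences of these 2 regions were −0.11 and 0.14 (limma adjusted p of 0.770 and 0.801). The shNC-specific region in intron 1 had 42.1 and 48.4 in deeper A and B, against 56.8 and 90.2 in shallower A and B, and its log2 difference of −0.65 did not pass (limma adjusted p = 0.0996).

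LATS2, on chromosome 13, encodes one of the kinases that inactivate YAP, and its start site showed the highest estimate of all 57 regions. The region lies in the 5′ UTR, 176 bp downstream of the TSS, and is shNC-specific. It had 83.3 and 83.1 normalized counts in the deeper pair, labelled shNC there, and 32.6 and 25.8 in the shallower pair, labelled shG8d. The deeper values rest on 99 and 103 reads and the shallower ones on 27 and 22, and the pairs lay far apart. Means of 83.2 ± 0.1 and 29.2 ± 4.8 (SD, n = 2 each) gave a 2.85-fold higher level for an estimate of 1.49 on the log2 scale (SE 0.282, limma adjusted p = 0.00136). With each library left out it lay between 1.32 and 1.65, and with equal library totals it was 1.14. Regions of the shNC-specific set were listed by the authors as specific to that group, and how they were chosen is not given in the sources used here, so the p-value may not be independent of that choice.

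The common regions of LATS2 did not pass. The intergenic region 8153 bp upstream had 20.2 and 33.9 normalized counts in deeper A and B, against 38.7 and 45.7 in shallower A and B, lower in the deeper pair without overlap (log2 difference −0.66, SE 0.350, limma adjusted p = 0.177). The region in intron 2 of 7, 44074 bp downstream, had 55.5 and 99.3 against 80.9 and 69.1. There the deeper libraries lay on both sides of the others, and the log2 difference was −0.0098 (SE 0.270, limma adjusted p = 0.983). LATS1, on chromosome 6, encodes the sister kinase, and a single region was assigned to it. This common region in intron 2 of 3, 19433 bp downstream, had 33.7 and 38.7 normalized counts in deeper A and B, against 32.6 and 29.3 in shallower A and B. Its log2 difference of 0.22 (SE 0.330) did not pass (limma adjusted p = 0.671).

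**Figure D2:**
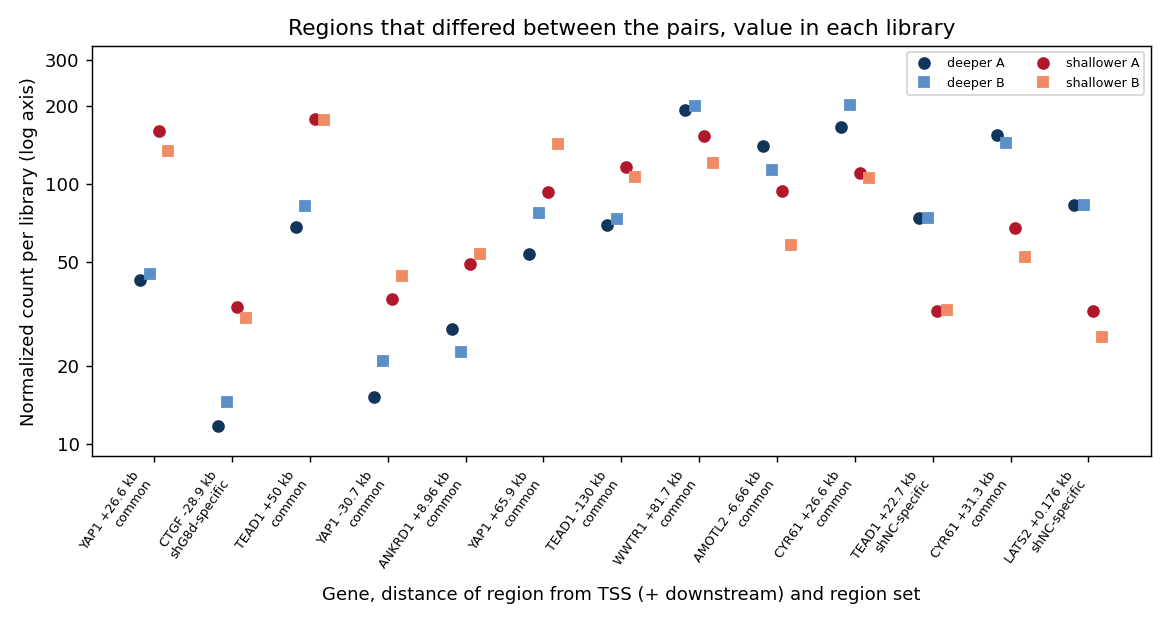
Normalized count (log axis) in each of the 4 libraries for the 13 regions with an adjusted p under 0.05, ordered from the most negative to the most positive log2 difference. Circles are replicate A and squares replicate B, with blue for the deeper and red for the shallower pair. At YAP1 +26.6 kb, a common region, the deeper pair (labelled shG8d) sits at 42.9 and 45.2 and the shallower pair at 159 and 135. At LATS2 +0.176 kb, which is shNC-specific, the deeper pair is labelled shNC and the order of the pairs is the opposite. By label, the shG8d columns are the lower ones at both. In the shNC-specific set that is the order of most regions that pass.

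Among the target genes, CYR61 on chromosome 1 encodes a secreted matrix protein that is one of the most used readouts of YAP activity. Both of its distal regions were higher in the deeper pair, labelled shG8d in these common regions. The intergenic region 31334 bp downstream of the TSS had 154 and 144 normalized counts in deeper A and B, against 67.7 and 52.7 in shallower A and B. Both deeper libraries stood far above both others. The means were 149 ± 6.8 and 60.2 ± 10.6 (SD, n = 2 each), for an estimate of 1.31 on the log2 scale (SE 0.221, limma adjusted p = 0.000563), which lay between 1.13 and 1.48 with each library left out and was 0.96 with equal library totals. The intergenic region at 26558 bp had 166 and 201 against 109.9 and 105 normalized counts. Here too both deeper libraries were the higher ones (log2 difference 0.76, SE 0.194, limma adjusted p = 0.00924). It did not pass without deeper B (0.62, adjusted p = 0.175) and with equal library totals (0.40, adjusted p = 0.131).

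The regions at the start of CYR61 did not pass, and their estimates lay below 0. The promoter region, 49 bp from the TSS and shNC-specific, had 63.1 and 69.4 normalized counts in deeper A and B, against 111 and 51.6 in shallower A and B, with the deeper values between the others. Its log2 difference was −0.19 (SE 0.296, limma adjusted p = 0.676). The common region in exon 2 of 5, 700 bp downstream, had 64.0 and 69.4 against 135 and 75.0. Both shallower values were above the deeper ones, one of them by far (log2 difference −0.59, SE 0.262, limma adjusted p = 0.109). Without shallower B the first was at −0.74 (adjusted p = 0.0221) and the second at −1.01 (adjusted p = 0.000727). Without shallower A the promoter region was at 0.35 (adjusted p = 0.362). Whether the distal and promoter regions of CYR61 differ in their response was not tested.

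CTGF, on chromosome 6, encodes a matricellular growth factor and is the other standard YAP target. It had 7 regions, of which 1 passed. The region at its start, common and 111 bp into the 5′ UTR had 62.3 and 68.6 normalized counts in deeper A and B, against 91.8 and 82.0 in shallower A and B. The deeper values were both lower, but the estimate of −0.40 (SE 0.234) missed the threshold (limma adjusted p = 0.222). It passed with equal library totals (−0.75, adjusted p = 0.0209). The region that passed was shG8d-specific and intergenic, 28872 bp upstream, with 11.8 and 14.5 normalized counts in the deeper pair, labelled shNC there, and 33.8 and 30.5 in the shallower pair. Only 14 and 18 reads stand behind the deeper values, and the pairs did not overlap. Its log2 difference was −1.23 (SE 0.399, limma adjusted p = 0.0314), lost without deeper A (adjusted p = 0.243) or B (0.133) and when the specific regions were fitted apart (0.0544). It was near the median of its set, −1.20, and its p-value may not be independent of how that set was chosen. The other 5 regions of CTGF had log2 differences between −0.31 and 0.59.

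AMOTL2, on chromosome 3, encodes an angiomotin family scaffold that binds YAP. The common region 6660 bp upstream of a TSS had 139.7 and 114 normalized counts in deeper A and B, against 94.2 and 58.6 in shallower A and B. Both deeper values were higher, although each pair was spread (log2 difference 0.75, SE 0.242, limma adjusted p = 0.0299). The call was lost in 3 of the 4 fits that left out a library, those without deeper A (0.61, adjusted p = 0.269), deeper B (0.90, adjusted p = 0.0646) and shallower B (0.42, adjusted p = 0.150), and with equal library totals (0.40, adjusted p = 0.204). Without shallower A the log2 difference was 1.09. The AMOTL2 promoter region, 267 bp upstream and common, had 215 and 236 against 289 and 224 normalized counts. The values overlapped (log2 difference −0.17, SE 0.178, limma adjusted p = 0.511), and with equal library totals the region was lower (−0.53, adjusted p = 0.0307).

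ANKRD1, on chromosome 10, encodes an ankyrin repeat protein and is a well-known YAP target. Its common region in the 3′ UTR, 8964 bp downstream of the TSS, had 27.8 and 22.6 normalized counts in deeper A and B, against 49.5 and 53.9 in shallower A and B. Replicates were close and the deeper pair was the lower one (log2 difference −1.02, SE 0.321, limma adjusted p = 0.0280). It did not pass without deeper A (adjusted p = 0.0847) or B (0.177) and without shallower B (0.0594). The ANKRD1 promoter region, 74 bp upstream and shNC-specific, was weak and scattered, at 23.6 and 31.5 against 18.1 and 43.4 normalized counts. The log2 difference was −0.04 (SE 0.408, limma adjusted p = 0.951).

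**Figure D3:**
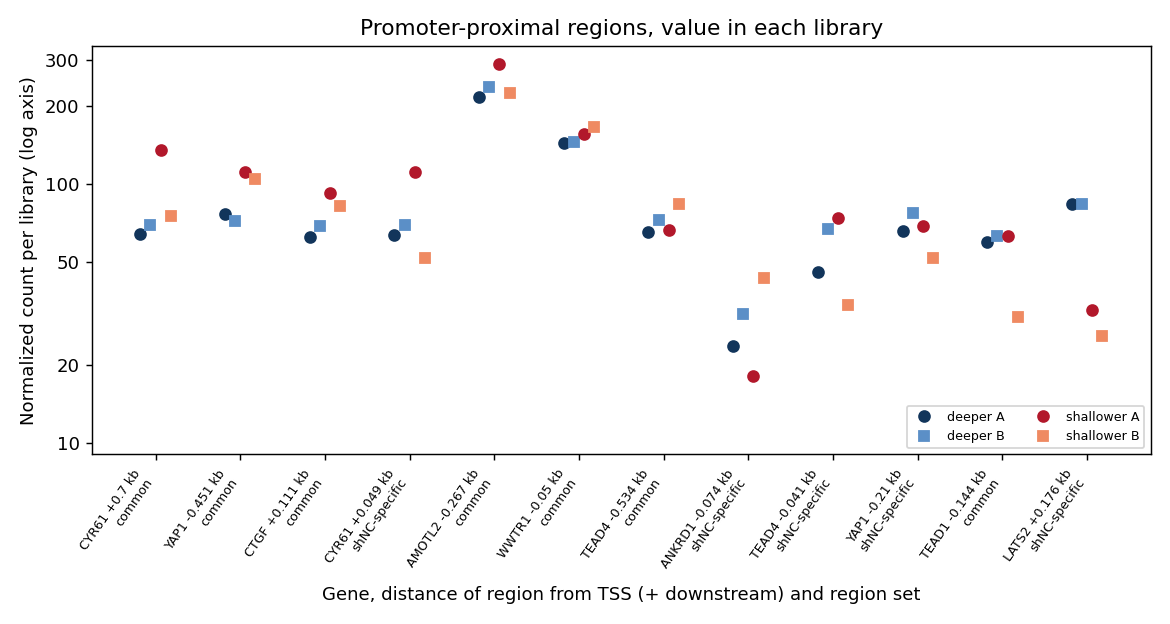
Normalized count (log axis) in each library at the 12 regions within 1 kb of a TSS or annotated as promoter, with symbols and colours by library and replicate. LATS2 at the right is the one region that passed. At most of the others the libraries of the shallower pair lie farther apart than the means of the pairs do. These are the regions of TEAD4, TEAD1, CYR61, AMOTL2 and ANKRD1 and the YAP1 region 210 bp upstream.

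Over the 12 promoter-proximal regions, common and shNC-specific together, the median log2 difference was −0.13, with 8 below 0. Over all 13020 promoter-proximal regions in the table it was 0.12. For the 7 common ones among the 12 it was −0.17, with 6 below 0, beside 0.02 over all common promoter-proximal regions. Over the 25 distal common regions it was −0.29, beside −0.17 over all distal common regions. The range of estimates ran from −1.71 at YAP1 to 1.49 at LATS2. Distances of the 13 regions that passed ran from 176 to 130474 bp, on both sides of the TSS. Introns made up 52.6% of the 57 regions and 39.8% of the table, and intergenic regions 22.8% and 37.3%.

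**Figure D4:**
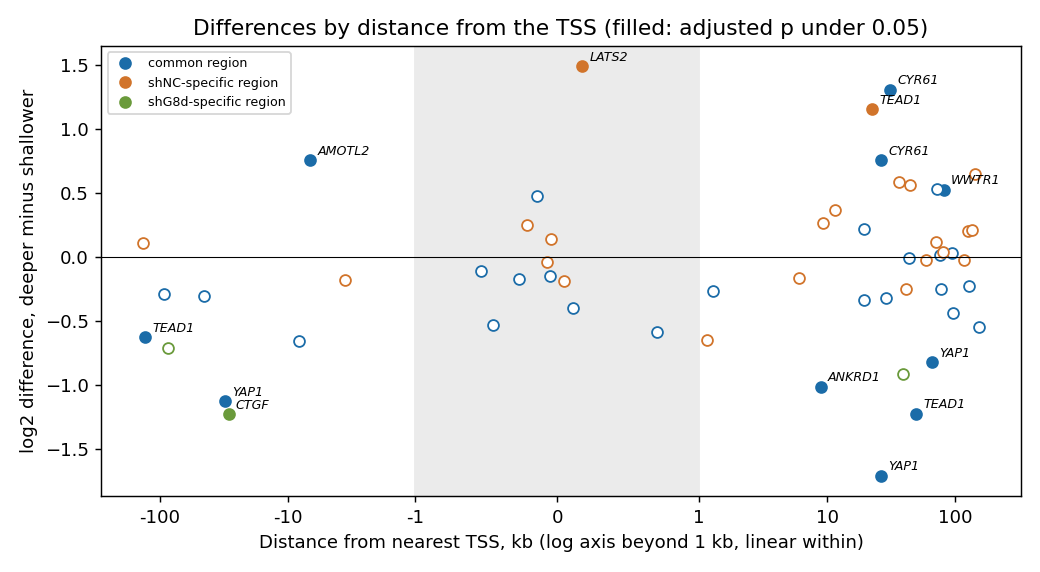
Log2 difference of each of the 57 regions against its distance from the nearest TSS in kb (positive downstream, linear within the grey 1 kb band and logarithmic beyond). Filled points have an adjusted p under 0.05 and carry the gene name. LATS2 at 1.49 is the single filled point inside the band, and the lowest, YAP1 at −1.71, lies 26.6 kb downstream.

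The median log2 difference of the 32 common regions was −0.28 (−0.12 over all common regions), with 23 below 0. That of the 22 shNC-specific regions was 0.12 (0.24 over the set), with 8 below 0. All 3 shG8d-specific regions, at WWTR1, TEAD1 and CTGF, were below 0, with a median of −0.92 (−1.20 over the set). With equal library totals the median of the common regions was −0.63, beside −0.47 over all common regions. By the authors' deposited table, an unadjusted p under 0.05 was listed for 12 of the 57 regions (21.1%), against 24.2% of all regions, and each of the 12 was among the 13 that passed here.

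**Figure D5:**
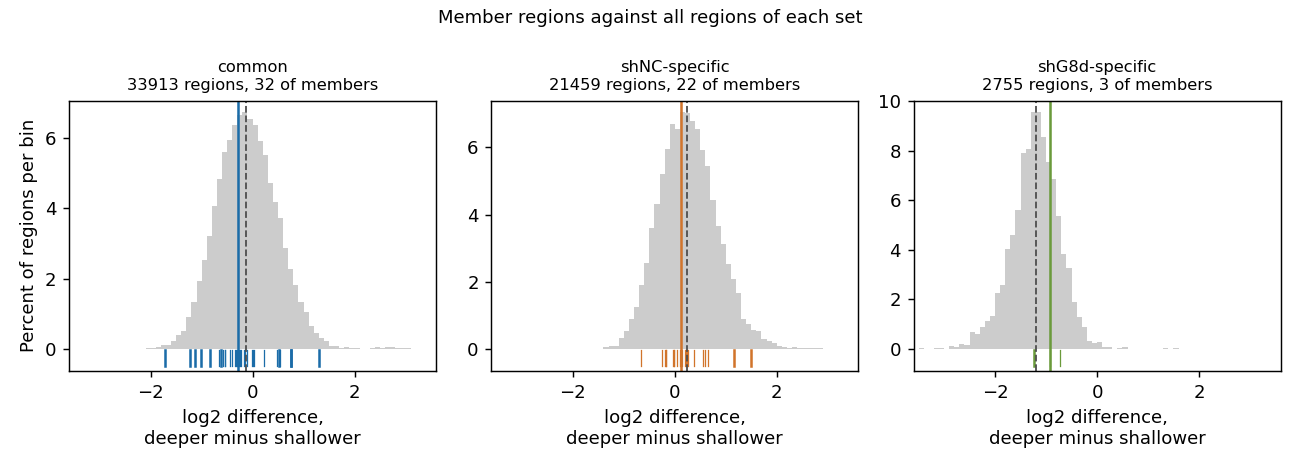
Percent of all regions of each set per bin of log2 difference (grey), with ticks below the axis for the regions of the 10 genes. The dashed line is the median of the set and the coloured line that of the 10 genes, −0.12 and −0.28 in the common set and 0.24 and 0.12 in the shNC-specific set.

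Other genes of the cascade were read from a separate list of 30, of which 26 had regions, 134 in all. In the deeper pair 17 of these regions were higher and 22 lower, 29.1% together against 23.6% of all regions. Of 79 common regions 7 were higher and 12 lower, 24.1% together beside 25.7% of all common regions. Of 40 shNC-specific ones 10 were higher and 0 lower, in a set where 13.2% of all regions were higher and 0.979% lower. Of 15 shG8d-specific ones 0 were higher and 10 (66.7%) lower, beside 70.0% of the set, so the direction in the specific sets was that of the set. The total fell without deeper A or without deeper B, as it did over all regions. With equal library totals 10 were higher and 48 lower, where 4.44% of all regions were higher and 28.1% lower. The lowest adjusted p values among the higher regions were at promoters of WWC1, which encodes the upstream activator KIBRA, and of TAOK2, a kinase upstream of the cascade. The WWC1 region on chromosome 5, 467 bp upstream and common, had 218 and 186 normalized counts in deeper A and B, against 77.3 and 65.6 in shallower A and B, for an estimate of 1.48 on the log2 scale (SE 0.204, limma adjusted p = 9.25e-05). At TAOK2 on chromosome 16, 169 bp upstream and common, the values were 135 and 119 against 48.3 and 44.5 (1.44, SE 0.232, limma adjusted p = 0.000390). In both, each deeper library was far above each shallower one.

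The TEAD3 promoter, shNC-specific, and a common intronic region of VGLL4, a competitor of YAP for TEAD binding, were higher too, by 1.54 and 1.04 on the log2 scale (limma adjusted p of 0.000697 and 0.000559). The lower regions with the lowest adjusted p were at MAP4K4 (−1.88) and FAT1 (−2.26), both shG8d-specific, at TAOK3 in a common region (−1.06), and in a shG8d-specific region in an intron of WWC1 (−1.31). The FAT1 region, 57583 bp upstream of the atypical cadherin gene, had 10.1 and 7.26 normalized counts in deeper A and B, against 39.9 and 50.4 in shallower A and B. WWC1 thus had regions that passed in both directions by depth, in different sets. By label, the columns called shG8d were the higher ones at both. In the shG8d-specific set 70.0% of all regions were called lower in the deeper pair and 0.0363% higher, so that direction was the one of the set.

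A list of 25 other YAP target genes had regions at 24 of them, 206 in all, with 16 higher and 30 lower in the deeper pair (22.3% together, beside 23.6% of all regions). Of 114 common regions 8 were higher and 20 lower (10.7% and 15.0% of all common regions), of 82 shNC-specific ones 8 and 3 (13.2% and 0.979% of the set), and of 10 shG8d-specific ones 0 and 7 (0.0363% and 70.0% of the set). Fewer passed without deeper A or without deeper B, as over all regions. With equal library totals 3 were higher and 69 lower, again beside 4.44% and 28.1% of all regions. THBS1, encoding thrombospondin, had the lowest adjusted p among the lower regions. This common region 35998 bp downstream of the THBS1 TSS, in an intron of a neighbouring gene's transcript, had 84.2 and 91.2 normalized counts in deeper A and B, against 194.5 and 214 in shallower A and B (log2 difference −1.21, SE 0.193, limma adjusted p = 0.000348). NT5E, the surface enzyme CD73, was lower in its exon 1 of 9 (−1.23, limma adjusted p = 0.000580), as were a common region at DOCK5 (−0.88) and a shG8d-specific region 188 bp from a start at RBMS3 (−1.84). Higher regions included a common one in an intron of MYOF (0.93) and shNC-specific intergenic regions assigned to ASAP1 (1.21) and AREG (77.4 and 71.8 against 39.9 and 34.0 normalized counts). DOCK5 did not pass without deeper A (adjusted p = 0.0577), ASAP1 not without deeper B (0.0622), and AREG not without deeper A (0.138) or B (0.0775), nor with equal library totals (0.0757).

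Markers of the cell type were checked by the presence of a region. At any distance, 9 of 9 mammary epithelial, 5 of 5 fibroblast and 4 of 5 leukocyte genes had one, so presence alone did not separate the lists. Within 1 kb of a TSS, 8 of the 9 epithelial genes had a region, among them CDH1, KRT5 and ITGB4, and TP63 had none. So did 1 of 5 fibroblast genes (PDGFRA) and 1 of 5 leukocyte genes (CD14), whereas PTPRC and COL1A1 had none there. Summed over these regions, epithelial markers held 1462 and 1312 normalized counts in deeper A and B, against 1072 and 1079 in shallower A and B. The fibroblast region held 51.3 and 69.4 against 93.0 and 70.3, and the leukocyte region 87.5 and 96.0 against 159.5 and 182. Their part in the results was not tested.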

How the data were processed

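ATAC-seq was measured in 4 libraries of MCF10A. Per the submitters' processing notes, the software was CASAVA 1.4 and the build hg19. Not given in the sources used here are the aligner, the peak caller, the scaling and the test behind the p-values. Per the file headers, the authors deposited a log10 normalized value per library and region, a log2 fold change, an unadjusted p-value, an annotation and a signed distance to the nearest TSS (positive downstream).

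On the linear scale, values in each column and set are whole multiples of 1 unit (100% of them within 0.05 reads), the worth of 1 read, from which reads were recovered and libraries identified across sets. Exact permutation over 2 against 2 libraries cannot go below p = 0.333, so limma 3.58.1 (R 4.3.3) was fitted with a mean-variance trend to log2(normalized count + 1) over all 58127 regions, as deeper minus shallower, and p-values were adjusted over the whole table by Benjamini-Hochberg with 0.05 as the threshold. Adding 1 understates changes of low regions. The filter (10 normalized counts in 2 libraries) removed none. The members and gene lists were chosen with earlier results of these data known. Named were, of the 10 genes, each region that passed or lay at a promoter, and each gene's region with the highest mean normalized count over the 4 libraries (not per width), and, of the other lists, up to 4 regions per direction with the lowest adjusted p, 1 per gene, except 1 item that is not reported here. Alternatives were other pseudocounts, filters and scalings, libraries left out, replicate letters, separate fits per region set and voom weights. Values of single regions carry counting error, and the most that a count of 0 allows, 3 reads, is worth 2.42 to 3.62 normalized counts.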

Additional observations from a re-analysis of the deposited data

How the results depend on the processing

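The 13 calls among the 57 regions became 12 with a pseudocount of 0.5, 10 with a minimum of 50 normalized counts in 2 libraries, 12 with common and specific regions fitted apart, and 13 with a pseudocount of 5, with no filter and with voom weights on the recovered reads, a setting chosen after seeing the data. Leaving out 1 library gave 5 to 18 calls in all, 4 to 11 in common regions (10 with all libraries; 4 without deeper A or deeper B and 6 without shallower B), 1 to 7 in specific regions (3 with all; 1 without deeper A or deeper B, 7 without shallower A and 5 without shallower B), 17 to 46 for the other pathway genes (39) and 13 to 63 for the other YAP targets (46). The calls over all regions also fell without deeper A or deeper B and rose without shallower A. With equal library totals the counts given here were 22, 16, 6, 58 and 72, and 32.6% of all regions passed in place of 23.6%. The median log2 difference of the members' common regions was then −0.63, and that of the specific regions −0.24 in place of 0.11. The specific median was 0.20 with the minimum of 50, and 0.025 to 0.16 with 1 library left out. Deviations from the pair means did not go together by letter (deeper A with shallower A, correlation −0.0039 over 58127 regions). Counting error also lowers such a correlation, so it cannot decide whether the libraries of a letter were matched. With the letter as a replicate block 13 member regions passed, 10 common and 3 specific.

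Among the regions named, signs changed only at regions that did not pass. With equal library totals YAP1 at 210 bp upstream became −0.10, TEAD4 at 41 bp −0.21 and LATS1 −0.13. With 1 library left out the differences ranged from −0.034 (without shallower B) to 0.99 for TEAD1 at 144 bp, from −0.27 to 0.046 (without shallower B) for TEAD4 at 534 bp, and from −0.41 to 0.68 for TEAD4 at 41 bp, which was also below 0 without deeper B (−0.14). They ranged from −0.42 to 0.40 for LATS2 at 44074 bp, above 0 without deeper A and without shallower A (0.10), from −0.74 to 0.35 (without shallower A) for CYR61 at 49 bp, from −0.36 to 0.0098 (without shallower A) for AMOTL2 at 267 bp, and from −0.65 to 0.56 for ANKRD1 at 74 bp, above 0 without shallower B and without deeper A (0.16). The cause was not tested. Fits without 1 library take the spread from the complete pair and assume that the lone library varies alike. Planned count-model tests were not run, and voom weights on the recovered reads were used in their place. At 14 to 38 reads per library, as in the CTGF and YAP1 upstream regions, counting error limits the precision.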
